A study of Rattus norvegicus with 4 samples.

Results

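The Havcr1-high spots were 254 regions of 1 injured rat kidney section that carried an elevated density of Havcr1 RNA. They were chosen by their Havcr1 counts in the PAN section, in UMIs (molecular tags that let each captured RNA molecule be counted once): a spot with at least 3000 UMIs was a member when it held at least 3 Havcr1 UMIs and at least 5 Havcr1 UMIs per 10000. The rule took 254 of 2607 PAN spots (9.743%), and the whole series held 10383 spots. The 853 PAN spots with 0 Havcr1 UMIs (Havcr1-zero spots) were the reference, and 1500 PAN spots with some Havcr1 lay between these groups. Havcr1 itself, having chosen the spots, was left out of every comparison of genes between groups of spots and of the totals that scaled their levels. Spot depths and the levels of Havcr1 itself used all UMIs.

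Havcr1 encodes KIM-1, a membrane glycoprotein of the TIM family. It is scarce in the uninjured kidney and appears on the luminal surface of injured proximal tubule cells, where it binds phosphatidylserine and lets the epithelium take up dying cells, and its shed ectodomain in urine is a marker of tubular injury. Osteopontin (Spp1) and lipocalin 2 (Lcn2) are other secreted products of injured tubules, and injured proximal cells are known to lose solute transporters.

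The series used the 10x Visium assay, in which barcoded spots under a 10 µm frozen section capture RNA, on 1 kidney section from each of 4 groups of Sprague-Dawley rats. The PAN rat had been injected with puromycin aminonucleoside, a podocyte toxin, had eaten freely and was examined 5 months after the injection, 6 weeks after the treatment period. The PAN_LS-FMD rat had the same injection and times and 6 cycles of LS-FMD (a fasting-mimicking diet low in salts), the healthy_LS-FMD rat had 1 cycle of that diet and 72 h of refeeding with no injection, and the healthy rat had no treatment. Ages were not given in the labels. With 1 section per group there is no replicate and no test. A spot covers several cells, often of different types, so all comparisons below describe regions of 1 section. Each 95% interval of a level or fold covers counting error only. Intervals of shares of spots treat spots as independent draws, which spots of 1 section are not. Fewer cells of a type and less RNA per cell cannot be told apart in these spots.

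Few spots outside the PAN section met the rule, namely 2 of 2180 in the PAN_LS-FMD section, 5 of 2551 in the healthy_LS-FMD section and 2 of 2863 in the healthy section. Pooled over spots with at least 3000 UMIs, Havcr1 stood at 219 CPM (UMIs scaled to a total of 1000000) in the PAN section, 6.21 CPM in the PAN_LS-FMD section, 5.47 CPM in the healthy_LS-FMD section and 8.44 CPM in the healthy section. Total depth was 24925280, 34966981, 25331233 and 58569311 UMIs for these sections. The PAN section shared 1912, 1948 and 2279 spot barcodes with the other sections in the same order. A Visium barcode marks a position on the slide, so sharing of barcodes says nothing of shared cells.

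The members held from 3 to 52 Havcr1 UMIs with a median of 7, and from 5.00 to 39.0 per 10000 with a median of 7.73. At the lower edge of the rule the 10 members nearest it had 5.00 to 5.09 Havcr1 UMIs per 10000, and the 10 nearest spots short of it had 4.91 to 4.99. Another 14 spots passed 5 per 10000 with only 2 UMIs and were left out, and 23 members had exactly 3 UMIs. Havcr1-high spots were deeper than Havcr1-zero spots: their total UMIs ran from 3023 to 21860 with a median of 9161.5, against 3021 to 27867 with a median of 7165. A shallow spot can hold Havcr1 RNA and show 0 UMIs of it, so the Havcr1-zero spots can include some that were missed. The median share of mitochondrially encoded RNA was 2.23% in Havcr1-high spots and 2.36% in Havcr1-zero spots, and that of haemoglobin RNA was 0.0133% and 0.0236% in the same order. The part of depth in the results was not tested beyond a comparison in which Havcr1-zero spots were weighted to the members' depth, where Spp1, Lcn2, Adamts1 and Timd2 were 2.06, 1.89, 3.20 and 2.70 times as high in Havcr1-high spots.

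Havcr1 has a relative next to it in the genome. In the RefSeq gene order Timd2, another TIM-family gene whose mouse product binds ferritin, is its direct neighbour on one side and Timd4 on the other. The start regions of Havcr1, of Timd2 and of Fgb (the fibrinogen beta chain, the injury gene with the highest fold below) are shown because the first chose the spots and the other two were higher in them. Each runs 5′ to 3′ from 250 bases before to 50 after the RefSeq gene start in GRCr8, at chr10:31629528-31629827 (plus strand) for Havcr1, chr10:31595827-31596126 (minus strand) for Timd2 and chr2:170700826-170701125 (minus strand) for Fgb. Capitals mark motif matches.
Havcr1: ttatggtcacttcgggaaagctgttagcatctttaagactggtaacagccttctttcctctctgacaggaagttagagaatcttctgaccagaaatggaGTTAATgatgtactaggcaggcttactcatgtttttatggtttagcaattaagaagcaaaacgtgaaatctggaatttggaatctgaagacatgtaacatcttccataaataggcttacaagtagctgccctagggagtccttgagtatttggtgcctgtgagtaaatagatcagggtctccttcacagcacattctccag
Timd2: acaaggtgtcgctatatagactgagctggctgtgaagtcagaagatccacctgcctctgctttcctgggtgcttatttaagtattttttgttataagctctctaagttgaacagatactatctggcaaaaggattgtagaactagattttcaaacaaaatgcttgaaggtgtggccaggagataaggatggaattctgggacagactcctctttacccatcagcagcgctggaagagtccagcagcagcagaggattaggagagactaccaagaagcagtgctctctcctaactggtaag
Fgb: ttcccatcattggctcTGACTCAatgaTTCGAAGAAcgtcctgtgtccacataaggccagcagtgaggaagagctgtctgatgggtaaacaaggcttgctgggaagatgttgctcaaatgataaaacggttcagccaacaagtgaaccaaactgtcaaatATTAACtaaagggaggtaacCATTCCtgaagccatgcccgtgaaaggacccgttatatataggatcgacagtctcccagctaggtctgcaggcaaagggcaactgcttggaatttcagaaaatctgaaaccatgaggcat
The motifs searched on both strands were AP-1 (TGANTCA), STAT (TTCNNNGAA), the TATA box (TATAAA), TEAD (GGAATG) and an HNF1 core (GTTAAT), which occur in 7.33%, 8.87%, 14.2%, 14.2% and 7.45% of 33469 RefSeq start regions of this length. Havcr1 held an HNF1 core beginning 151 bases before the start, Timd2 none of the 5, and Fgb an AP-1, a STAT, an HNF1 and a TEAD match beginning 234, 223, 90 and 70 bases before the start. A match is a run of letters and not a shown binding site. The build of the deposited counts was not given in the sources used here, and these positions are those of GRCr8 alone.

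Havcr1-high spots were set apart by more RNA of 10 of 23 tubular injury genes and by less RNA of many distal nephron genes and of 3 of 6 genes of proximal segment S3. Pooled CPM was compared between the groups, which held 2468476 UMIs in Havcr1-high and 6716128 in Havcr1-zero spots. A gene was measured at 50 UMIs over both, and called when it was at least 1.5 times as high, or as low, with a 95% interval that left out 1. Of 9505 measured genes, 228 (2.4%) were higher and 481 (5.06%) lower in Havcr1-high spots, and the median log2 fold of all was -0.03. These intervals were not adjusted for the number of genes, and among the 6827 genes with at least 200 UMIs the counts were 95 higher (1.39%) and 259 lower (3.79%).

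The osteopontin gene Spp1 stood at 27525 CPM in Havcr1-high spots and 14241 CPM in Havcr1-zero spots, a 1.93-fold difference (95% interval 1.91 to 1.95). Per spot it ran from 77.8 to 617 UMIs per 10000 with a median of 261 in Havcr1-high spots, against 40.2 to 413 with a median of 138 in Havcr1-zero spots. The groups overlapped widely, yet 92.9% of the Havcr1-high spots lay above the Havcr1-zero median. Lcn2, an iron-siderophore-binding secreted protein, had 341 CPM in Havcr1-high and 195 CPM in Havcr1-zero spots, 1.74-fold (1.60 to 1.90). Per 10000 UMIs its median was 2.86 with a maximum of 16.0 in Havcr1-high spots, and 1.57 with a maximum of 17.5 in Havcr1-zero spots, so single Havcr1-zero spots reached as high.

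**Figure D1:**
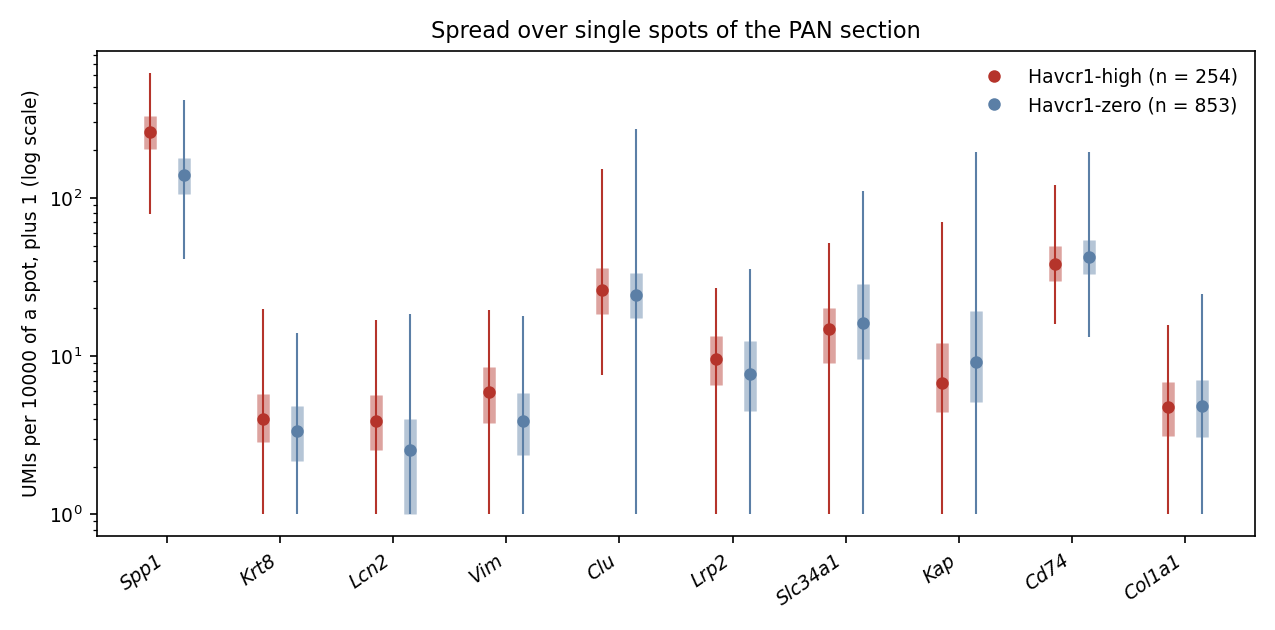
Levels per spot (UMIs per 10000) of 10 genes in the 254 Havcr1-high spots and, to their right, the 853 Havcr1-zero spots, with 1 added and on a log axis. Points are medians, thick bars the middle 50% of spots and thin lines the full range. The Spp1 medians were 261 in Havcr1-high and 138 in Havcr1-zero spots, and the full ranges overlapped for all 10 genes.

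Of 23 measured genes of a list of tubular injury proteins, 10 were higher and 1 lower, with a median log2 fold of 0.42 against -0.03 over all genes. The list was chosen with earlier results of these data known, so this count can partly reflect that choice. The fibrinogen chains led the list: Fgb had 44.6 CPM in Havcr1-high and 12.5 CPM in Havcr1-zero spots, 3.56-fold (2.66 to 4.79), from 110 and 84 UMIs. Fga had 27.1 and 9.83 CPM in the same order, 2.76-fold (1.94 to 3.94). Il24, a cytokine of the IL-10 family, had 84.7 CPM in Havcr1-high and 36.0 CPM in Havcr1-zero spots, 2.35-fold (1.94 to 2.84). The other higher members were Gdf15 (1.89-fold), the intermediate filament gene Vim (1.63), the hyaluronan receptor gene Cd44 (1.61), S100a11 (1.59) and Anxa3 (1.54). The list depended on the Havcr1 threshold: with every spot that held any Havcr1 UMI as a member, 0 of its genes and 50 genes in all were called higher, and Spp1 stood at 1.29-fold.

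The label of injured tubule held for part of its markers. Beside Spp1 and Lcn2, which were higher, the keratin gene Krt8 had 348 CPM in Havcr1-high and 261 CPM in Havcr1-zero spots, 1.33-fold and short of the rule. Clu (0.97-fold), Vcam1 (0.90) and Krt7 (0.90) were neither, and Sox9, a transcription factor of repairing tubules, had 15.8 and 10.7 CPM on 39 and 72 UMIs, 1.47-fold (0.97 to 2.21). Krt18 was lower, with 22.3 CPM in Havcr1-high and 43.9 CPM in Havcr1-zero spots, but its fold was 1.02 within proximal-led spots (defined below). The spots are therefore called by their rule, Havcr1-high.

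**Figure D2:**
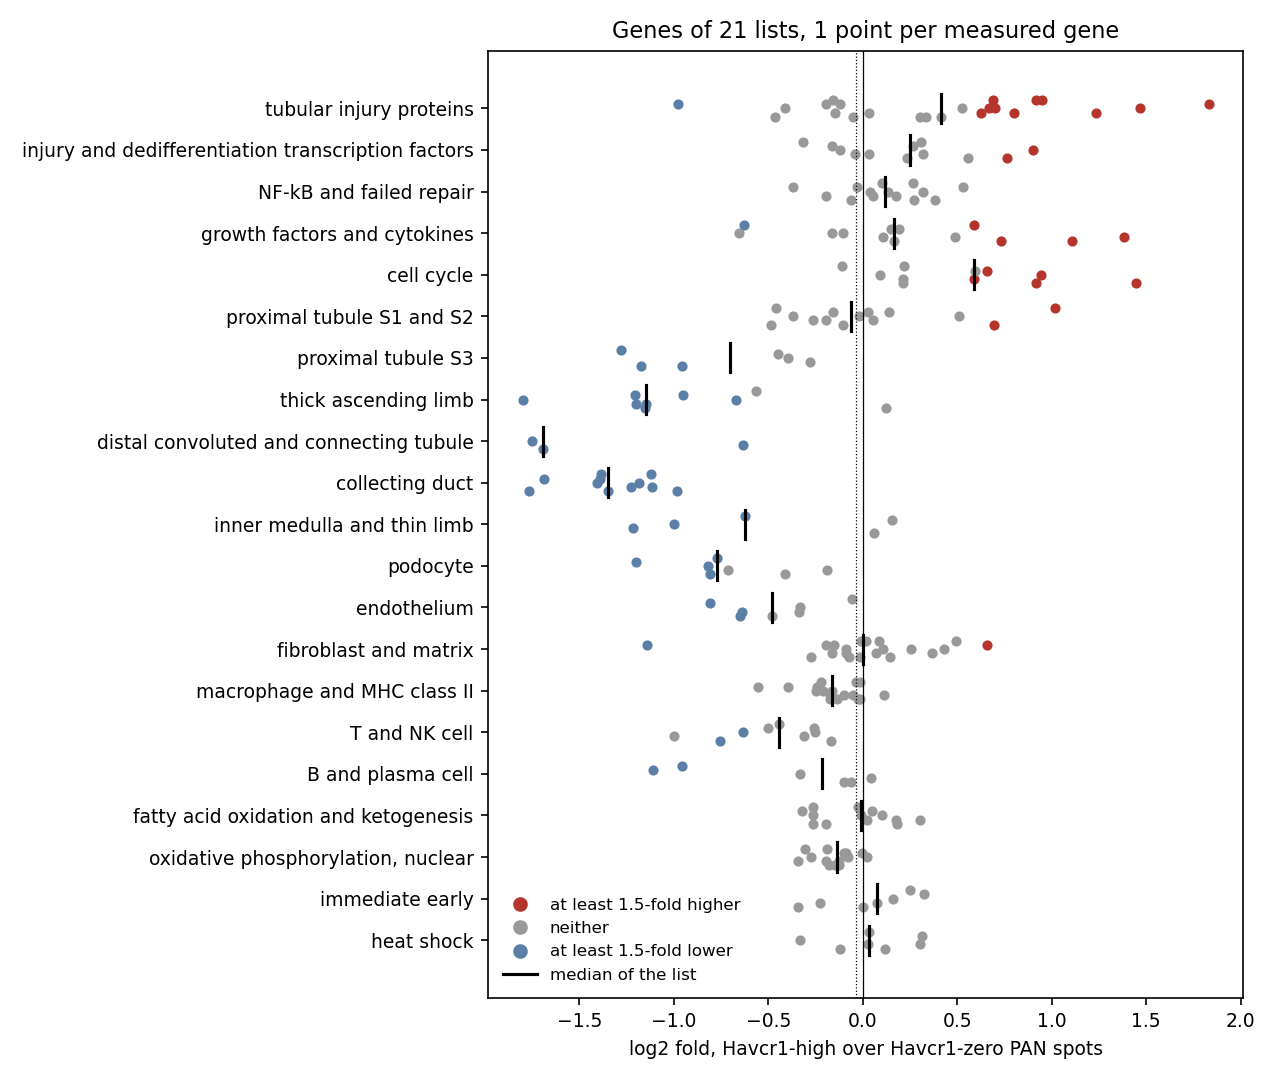
Fold of pooled CPM, Havcr1-high over Havcr1-zero spots, on a log2 axis, for each measured gene of the lists named at the left; each point is 1 gene coloured by its call, black bars are list medians and the dotted line is the median of all genes. The collecting duct list lies wholly below 0 (11 of 11 lower), while 10 of 23 tubular injury genes were higher.

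The 15 genes with the highest folds among those with at least 200 UMIs ran from 1.98-fold to 2.78-fold. Adamts1, a secreted metalloprotease that cleaves proteoglycans, had 98.8 CPM in Havcr1-high and 35.6 CPM in Havcr1-zero spots, 2.78-fold (2.31 to 3.33). Timd2 had 89.5 and 32.9 CPM in the same order, 2.72-fold (2.25 to 3.29), with 221 UMIs in each group. Whether reads were shared between Timd2 and its paralog Havcr1 was not tested, and the Timd2 value is uncertain for that reason. Outside the PAN section Timd2 stood at 18.3 CPM in the PAN_LS-FMD section, 13.9 CPM in the healthy_LS-FMD section and 25.2 CPM in the healthy section.

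Several of the set are enzymes and carriers. Car3, a carbonic anhydrase, had 58.3 CPM in Havcr1-high and 23.8 CPM in Havcr1-zero spots (2.45-fold), and Rdh10, a retinol dehydrogenase of retinoic acid synthesis, had 190 and 79.7 CPM (2.38-fold). Slc7a7, which exports cationic amino acids across the basolateral membrane, had 108 CPM in Havcr1-high and 45.6 CPM in Havcr1-zero spots (2.37-fold). Slc2a2, the glucose carrier GLUT2 of early proximal tubule, had 188 and 92.9 CPM (2.02-fold). Gpx2, a glutathione peroxidase, had 263 CPM in Havcr1-high and 127 CPM in Havcr1-zero spots (2.07-fold).

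Signalling genes in the set were Il24, Cntf (a cytokine of the IL-6 family, 2.12-fold), Adra1d (an alpha-1 adrenergic receptor, 2.10-fold), Tifa (an adaptor of NF-kB signalling, 2.03-fold) and Ddit4l (an inhibitor of mTORC1, 2.02-fold). Mab21l3, the cargo protein gene Tmed6 and the dynamin gene Dnm3 stood at 2.31-fold, 2.29-fold and 1.98-fold. They were seen in 28.0% (Ddit4l) to 79.9% (Gpx2) of Havcr1-high spots. Adamts1 was seen in 57.1% of Havcr1-high and 24.5% of Havcr1-zero spots, and Timd2 in 48.0% and 21.3%. Thinned to 3000 UMIs per spot the expected shares were 24.7% and 10.8% for Adamts1 and 20.7% and 9.18% for Timd2, in the same order of groups.

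The levels were also set out by Havcr1 class. From 0 Havcr1 UMIs, to spots short of the rule, to members under 10 per 10000 (175 spots) and members at 10 or more (79 spots), Adamts1 stood at 35.6, 42.5, 81.7 and 136 CPM and Timd2 at 32.9, 40.0, 76.4 and 118 CPM. Fgb stood at 12.5, 13.9, 33.7 and 68.0 CPM and Il24 at 36.0, 37.4, 66.9 and 123 CPM in the same order. For each of these 4 genes the first step, from 0 to spots short of the rule, was the smallest. Since the genes were chosen on the end classes, a rise over the classes is partly fixed by that choice. Spp1 gained little in the last step (14241, 16839, 27320 and 27971 CPM), and Car3, Ddit4l and Dnm3 did not gain in it. Spots of the same class share 1 section, and the classes were cut by Havcr1 itself.

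**Figure D3:**
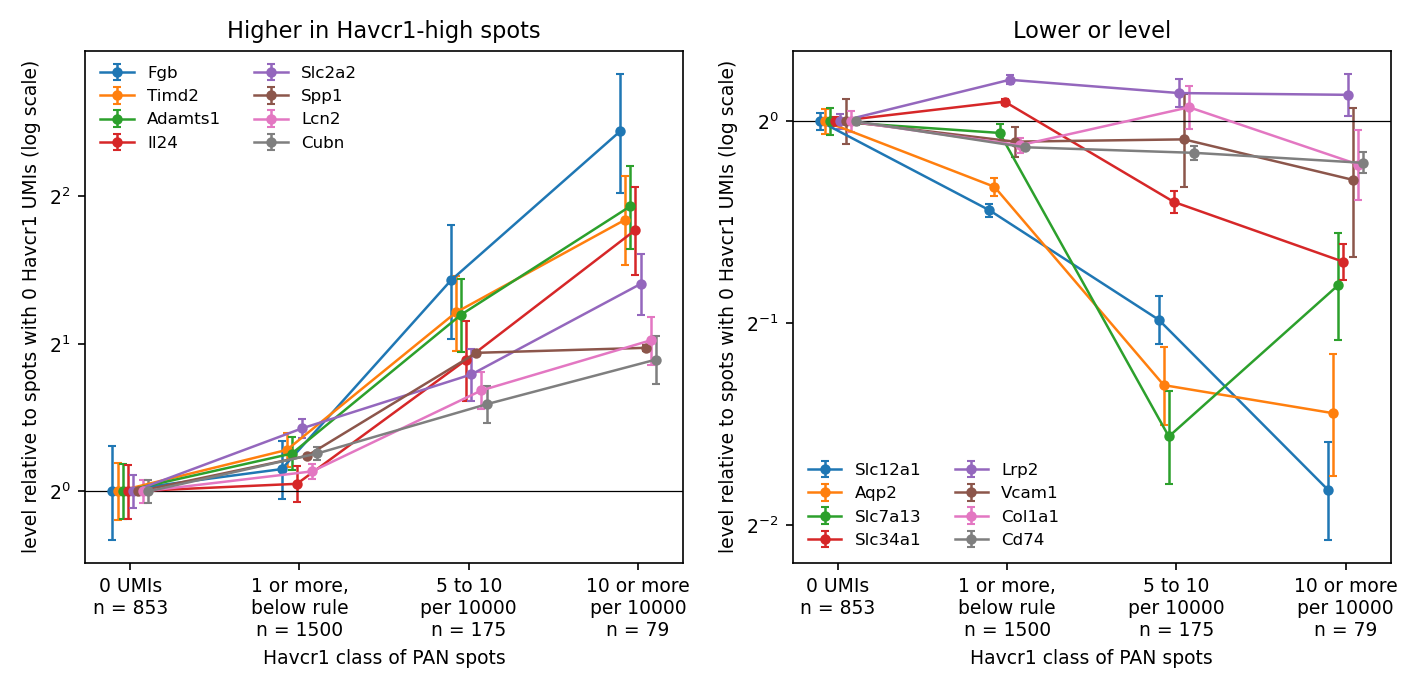
Pooled level of 16 genes relative to spots with 0 Havcr1 UMIs (log2 axis, with 95% intervals of counting error) across 4 ordered classes of PAN spots, from 0 Havcr1 UMIs at the left to members at 10 or more Havcr1 UMIs per 10000 at the right. In CPM, Adamts1 stood at 35.6, 42.5, 81.7 and 136 and Aqp2 at 325, 260, 131 and 119.

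Other groups of injury genes had few called members. Of 12 measured transcription factors of injury and dedifferentiation, Myc (70.1 CPM in Havcr1-high and 37.5 CPM in Havcr1-zero spots, 1.87-fold) and the stress factor gene Atf3 (54.7 and 32.2 CPM, 1.70-fold) were higher and none was lower. Of 13 growth factors and cytokines 4 were higher, namely Tgfb2 (38.1 and 14.6 CPM, 2.61-fold), the EGF receptor ligand gene Areg (2.16-fold, on 23 and 29 UMIs), the chemokine gene Cxcl10 (1.66-fold) and Pdgfb (1.504-fold). Cx3cl1 was lower (0.65-fold). Within proximal-led spots none of 9 measured growth factor and cytokine genes was called, and Tgfb2, Cxcl10 and Pdgfb stood at 1.19-fold, 1.16-fold and 1.35-fold. None of 14 NF-kB and failed repair genes was called, and of 12 TIM-family and phagocytic receptor genes only Timd2 was.

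Cell cycle genes were higher in 5 of 11 measured, with a median log2 fold of 0.59. Ube2c, which feeds the anaphase-promoting complex, had 28.4 CPM in Havcr1-high and 10.4 CPM in Havcr1-zero spots, 2.72-fold (1.93 to 3.84) on 70 UMIs in each group. Mki67, a marker of cycling cells, had 24.7 and 13.1 CPM, 1.89-fold (1.34 to 2.64). The others were Cenpf (1.92-fold), Mcm2 (1.58) and Cdk1 (1.504). These counts were small, and the number called was 2 of 6 measured within proximal-led spots and 2 when the 30 spots with the most Havcr1 UMIs were left out. Among genes of arrest and senescence, Igfbp3 was lower at 0.54-fold and Cdkn1a (p21) was neither at 1.30-fold.

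Most measured genes of the distal nephron lists were lower. All 11 measured collecting duct genes were lower in Havcr1-high spots (median log2 fold -1.35), as were 7 of 9 of the thick ascending limb (-1.15), 3 of 3 of the distal convoluted and connecting tubule (-1.69) and 3 of 5 of the inner medulla and thin limb (-0.62). Aqp2, the vasopressin-regulated water channel of principal cells, had 128 CPM in Havcr1-high and 325 CPM in Havcr1-zero spots, 0.39-fold (0.35 to 0.44). The chloride-bicarbonate exchanger gene of intercalated cells, Slc4a1, had 44.2 and 151 CPM, 0.29-fold (0.24 to 0.36). The highest of 254 Havcr1-high spots held 4.69 UMIs per 10000 against 53.4 in the highest of 853 Havcr1-zero spots. A larger group can reach a higher maximum by number alone. Umod (uromodulin, the chief product of the thick limb) had 3216 CPM in Havcr1-high and 6215 CPM in Havcr1-zero spots, 0.52-fold, and Slc12a1, its sodium-potassium-chloride carrier, had 283 and 651 CPM, 0.43-fold.

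The 15 lowest genes ran from 0.21-fold to 0.39-fold and held several distal nephron genes. Rhcg, an ammonia channel, stood at 0.27-fold, Calb1, a calcium buffer of the distal tubule, at 0.31-fold, and the anion exchanger pendrin, Slc26a4, at 0.38-fold. The proton pump subunit genes Atp6v0d2 and Atp6v1g3 both stood at 0.38-fold and the kallikrein gene Klk1c9 at 0.37-fold. Wfdc10a was the lowest, with 6.89 CPM in Havcr1-high and 33.2 CPM in Havcr1-zero spots on 17 and 223 UMIs. Tmem207 (0.29-fold), Igh-6, an immunoglobulin heavy chain gene (0.33), the mucin gene Muc20 (0.36), Tmem213 (0.37), Mal2 (0.37) and the guanylin gene Guca2a (0.39) completed the set. Across the 4 Havcr1 classes Aqp2 stood at 325, 260, 131 and 119 CPM.

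To sort the spots by nephron list, each PAN spot was assigned the segment list on which it scored highest (mean z score of log2(UMIs per 10000 + 1)). Proximal S1 and S2 led 78 of 254 Havcr1-high spots (30.7%, 95% interval 25.1 to 36.8%) and 174 of 853 Havcr1-zero spots (20.4%, 17.7 to 23.3%). The thick ascending limb led 7.87% of Havcr1-high and 19.1% of Havcr1-zero spots, and the collecting duct 4.72% and 9.26%. Inner medulla and thin limb genes led 17.3% and 12.2%, podocyte genes 14.2% and 10.2%, distal genes 9.06% and 8.68%, and S3 genes 16.1% and 20.2%. Seen the other way, 15.2% of spots led by inner medulla genes, 14.2% of those led by podocyte genes and 12.4% of those led by S1 and S2 genes met the rule, against 5.26% of those led by the thick limb. A leading list is a relative score in a mixed region and not a cell type. Over all spots, 4 of 7 podocyte genes and 3 of 5 inner medulla and thin limb genes were lower in Havcr1-high spots. The podocyte list summed to 109 CPM in Havcr1-high and 179 CPM in Havcr1-zero spots, and the inner medulla list to 432 and 437 CPM. A larger share of spots led by either list was thus not more RNA of that list.

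**Figure D4:**
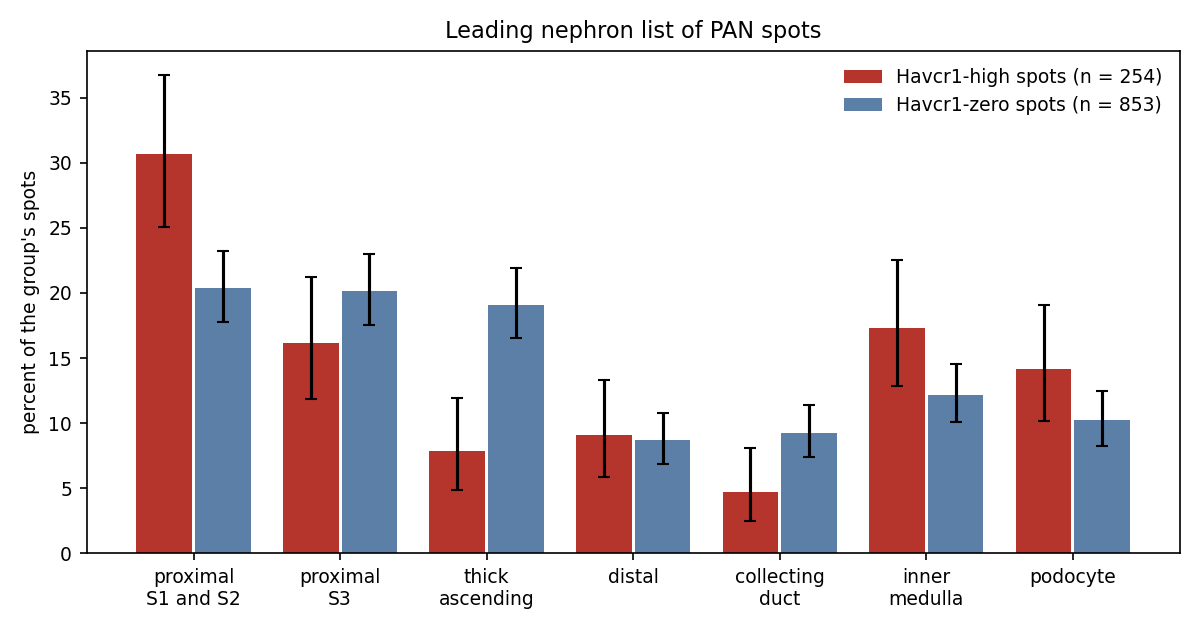
Share of spots (%, 95% Clopper-Pearson interval, which treats spots as independent draws) led by each of 7 nephron lists, with the Havcr1-high bar left of the Havcr1-zero bar. S1 and S2 genes led 30.7% of Havcr1-high and 20.4% of Havcr1-zero spots, and the thick ascending limb 7.87% and 19.1%.

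The spots led by proximal lists were also compared alone. Within spots led by either proximal list (119 Havcr1-high and 346 Havcr1-zero), 0 of 9 measured collecting duct genes and 3 of 8 thick limb genes were lower, with Aqp2 at 0.67-fold. In spots led by the collecting duct list (12 Havcr1-high and 79 Havcr1-zero), whose score used these genes, Aqp2 stood at 176 CPM in Havcr1-high and 1548 CPM in Havcr1-zero spots, 0.11-fold (0.066 to 0.18). In proximal-led spots 9 of 23 tubular injury genes were higher, 1 (Tff3, 0.58-fold) was lower and 13 were neither, with Spp1 at 28040 CPM in Havcr1-high and 13739 CPM in Havcr1-zero spots (2.04-fold), Il24 at 3.37-fold, Adamts1 at 3.08-fold and Lcn2 at 1.81-fold. Here 232 of 8118 genes were higher (2.86%) and 338 lower (4.16%). These spots are a subset of those above, so the values are not independent of them.

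Genes of the early proximal tubule were mostly level. Of 14 measured S1 and S2 genes over all spots, Slc2a2 and Cubn were higher and none was lower (median log2 fold -0.06). Cubn and Lrp2 encode cubilin and megalin, the receptors of protein reabsorption. Cubn had 336 CPM in Havcr1-high and 208 CPM in Havcr1-zero spots, 1.62-fold, and Lrp2 had 969 and 881 CPM, 1.10-fold. Slc34a1, the sodium-phosphate carrier NaPi-IIa, had 1500 and 2101 CPM, 0.71-fold and short of the rule. Within proximal-led spots Slc34a1 was lower (0.61-fold), as was Miox, the myo-inositol oxygenase gene (0.63-fold), and Cubn was no longer called (1.44-fold). Taken apart, Slc34a1 had 1948 CPM in Havcr1-high and 3963 CPM in Havcr1-zero spots led by S1 and S2, 0.49-fold (0.47 to 0.52). In spots led by S3 it stood at 0.70-fold. The S1 and S2 score used this gene.

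The S3 list was lower in 3 of 6 over all spots (median log2 fold -0.70) and in 6 of 6 within proximal-led spots. Slc7a13, an aspartate and glutamate transporter of S3, had 112 CPM in Havcr1-high and 273 CPM in Havcr1-zero spots, 0.41-fold (0.36 to 0.47), and 146 and 444 CPM in proximal-led spots, 0.33-fold. The S3 list, whose score used these genes, led 41 of the 119 Havcr1-high and 172 of the 346 Havcr1-zero proximal-led spots. Taken apart, Slc7a13 stood at 0.64-fold in spots led by S1 and S2 and 0.48-fold in spots led by S3. The part of this unequal makeup in the proximal-led values was not tested. Kap, the androgen-regulated kidney protein, had 946 and 2137 CPM, 0.44-fold, and Slco1a6, an organic anion carrier, had 74.9 and 146 CPM, 0.51-fold. In the sections without high Havcr1, Slc7a13 stood at 3087 CPM (PAN_LS-FMD), 2264 CPM (healthy_LS-FMD) and 2530 CPM (healthy), so both groups of PAN spots were far below them.

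Few genes of proximal transport and metabolism were called. Of 7 drug and organic ion carriers the apical export pump gene Abcc2 was higher (2.19-fold, on 37 and 46 UMIs) and the basolateral cation carrier gene Slc22a2 lower (155 CPM in Havcr1-high and 237 CPM in Havcr1-zero spots, 0.65-fold). Dab2, the endocytic adaptor of megalin, was higher at 1.83-fold, on 31 UMIs in Havcr1-high spots. That call held in 7 of 12 alternative settings, and Dab2 was not called against spots short of the rule (1.37-fold). None of 13 fatty acid oxidation genes, 5 gluconeogenesis genes, 11 glycolysis genes or 14 nuclear genes of oxidative phosphorylation was called. The median log2 fold of gluconeogenesis was -0.37, with Pck1 at 0.69-fold. Of these 5 genes, 2 were lower against spots short of the rule, among them G6pc (0.64-fold), and 0 were lower in proximal-led spots. Gclc, of glutathione synthesis, was lower at 0.56-fold and Gsta2 at 0.55-fold among 13 antioxidant genes. In proximal-led spots 4 of 13 were lower, namely Gclc (0.44-fold), Gsta2 (0.41), Nqo1 (0.41, on 9 and 50 UMIs) and Cat (0.60). None of 5 iron, 8 endoplasmic reticulum stress, 7 immediate early and 7 heat shock genes was called.

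Most markers of podocytes, vessels and stroma were lower or not called in Havcr1-high spots, with Tnc the exception. Of 7 podocyte genes 4 were lower, among them Podxl (podocalyxin) with 30.4 CPM in Havcr1-high and 51.8 CPM in Havcr1-zero spots, 0.59-fold. Of 7 endothelial genes 3 were lower (Flt1 0.57-fold, Plvap 0.64, Egfl7 0.64), of 8 smooth muscle and pericyte genes 1 (Myh11, 0.44) and of 3 parietal epithelium genes 0. The Flt1, Plvap and Egfl7 calls held in 9, 7 and 6 of 12 alternative settings. In any such count, the setting with a lower measuring limit keeps every call of the main comparison by construction. The setting with a 2-fold limit reads the same folds again. Of the 7 endothelial genes, 3 were lower in proximal-led spots and 0 against spots short of the rule. Of 20 matrix genes Tnc (tenascin C) was higher at 1.58-fold and Lum lower at 0.45-fold, while Col1a1 had 413 CPM in Havcr1-high and 417 CPM in Havcr1-zero spots, 0.99-fold.

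Among immune markers some genes were lower, and Cfi and Kit were higher. None of 17 macrophage and MHC class II genes was called, and Cd74, the invariant chain, had 3875 CPM in Havcr1-high and 4364 CPM in Havcr1-zero spots, 0.89-fold. Of 9 measured T and NK cell genes, Lck (0.65-fold) and Cd2 (0.59-fold) were lower, as were the immunoglobulin genes Ighm (0.46-fold) and Igkc (0.51-fold) among 6 B and plasma cell genes. The Cd2 and Lck calls held in only 3 and 5 of 12 alternative settings, and no T and NK cell gene was called in proximal-led spots or against spots short of the rule. The Ighm and Igkc calls held in 11 and 10 of 12 settings, and 2 of 3 B and plasma cell genes were lower in proximal-led spots. Against spots short of the rule, however, 0 of 6 were lower and 1 was higher (Cd79a, 1.84-fold, on 22 and 75 UMIs). Of 15 interferon genes Cxcl9 was lower (0.42-fold, on 9 and 59 UMIs), and of 8 complement genes Cfi, which encodes factor I, was higher (26.3 and 11.5 CPM, 2.30-fold). Kit was higher at 1.56-fold, but the mast cell protease genes Cpa3 and Mcpt1 were not called (1.09-fold and 0.82-fold). Of 4 red blood cell genes 3 were lower, Hba-a1, Hba-a2 and Hba-a3 at 0.58, 0.58 and 0.57-fold, and the part of blood or of any other cell type in the differences above was not tested. Cdh1, encoding E-cadherin, was lower at 0.46-fold among 12 junction genes, yet stood at 1.08-fold in proximal-led spots.

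Havcr1-zero spots of the PAN section also held more injury RNA than the other sections. Their 14241 CPM of Spp1 compared with 225 CPM in the PAN_LS-FMD section, 1288 CPM in the healthy_LS-FMD section and 332 CPM in the healthy section. Il24 stood at 84.7 CPM in Havcr1-high and 36.0 CPM in Havcr1-zero spots, against 0.114, 0.0793 and 0.188 CPM in those sections, on 4, 2 and 11 UMIs. Lcn2 stood at 341 and 195 CPM against 9.99, 15.8 and 9.63 CPM. Both groups of PAN spots thus lay above the other sections for these genes. For Tmed6 the Havcr1-high spots lay within the range of the other sections and the Havcr1-zero spots below it, with 69.3 CPM in Havcr1-high and 30.2 CPM in Havcr1-zero spots against 67.5, 76.7 and 41.9 CPM. The healthy matrix was made with another version of the counting software, and section and group cannot be told apart.

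**Figure D5:**
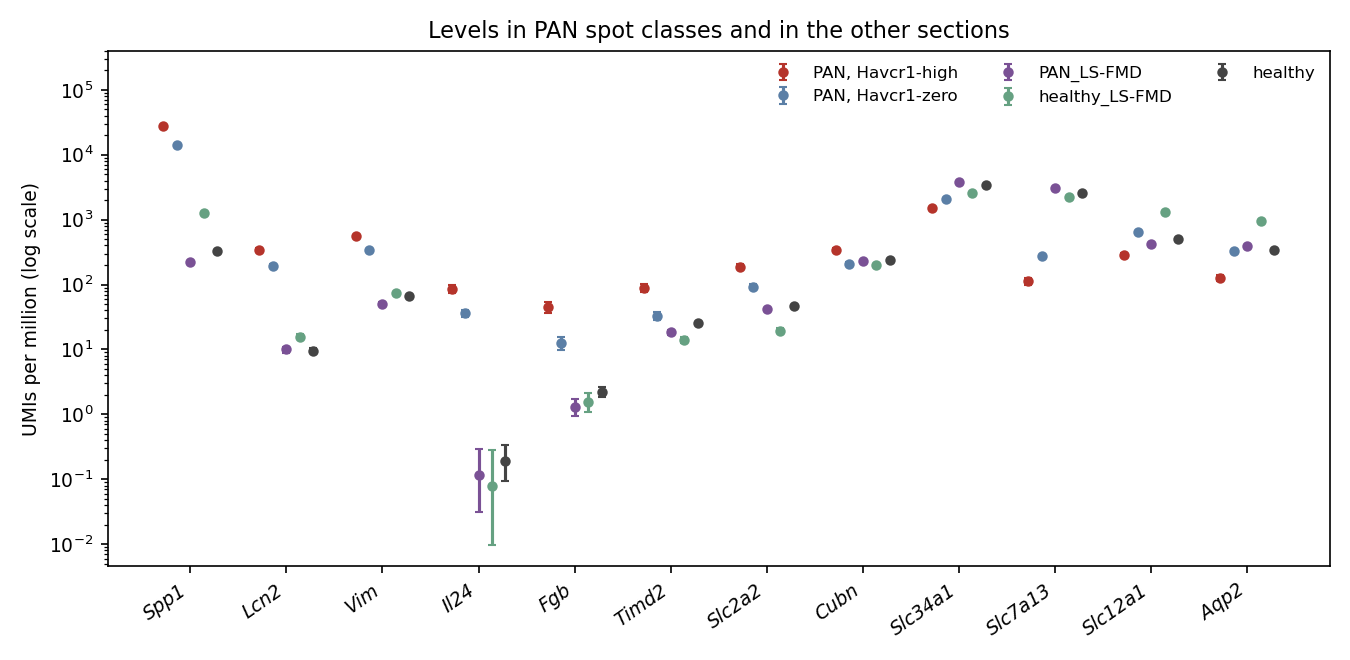
Pooled level (CPM, log axis) of 12 genes in Havcr1-high and Havcr1-zero spots of the PAN section and in all spots with at least 3000 UMIs of the PAN_LS-FMD, healthy_LS-FMD and healthy sections. Spp1 stood at 27525, 14241, 225, 1288 and 332 CPM in that order.

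Against the 1500 PAN spots with Havcr1 short of the rule, which were as deep (median 9583 UMIs), 236 of 10373 genes were higher (2.28%) and 318 lower (3.07%). This comparison shares its Havcr1-high spots with the one above. Spp1 was 1.64-fold, Lcn2 1.59-fold, Adamts1 2.33-fold, Timd2 2.24-fold and Fgb 3.21-fold as high in Havcr1-high spots as in these, while Aqp2 was 0.49-fold and Slc7a13 0.43-fold. Vim (1.42-fold) and Cubn (1.35-fold) were not called against them.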

How the data were processed

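Visium UMI counts of 4 rat kidney sections were used as deposited: whole-number counts per gene and spot, not normalised, made by the authors with Space Ranger 1.2.1 for the PAN, PAN_LS-FMD and healthy_LS-FMD sections and 2.0.1 for the healthy section, per the file headers. Aligner settings and genome build are not given in the sources used here. Spots with at least 3000 UMIs were kept, which left out 122 of 2729 PAN spots. Images and spot positions were not used here, no doublet caller was run on spots, and each group is 1 section.

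UMIs were summed over the spots of a group and scaled to CPM, with Havcr1 left out of totals except for its own CPM. Spot depths, shares of mitochondrial and haemoglobin RNA, nephron list scores and thinning used all UMIs. Fold intervals are exact 95% intervals of 2 Poisson counts and cover counting error only. Shares of spots have Clopper-Pearson intervals, which treat spots as independent draws and do not cover spread between animals. A count of 3 was worth 1.22 CPM in Havcr1-high and 0.447 CPM in Havcr1-zero spots. Shares of spots with a UMI were also computed for spots thinned to 3000 UMIs (hypergeometric expectation). The procedure was tested on simulated data, drawn as independent Poisson counts at a common rate per gene with known folds set for some genes. The fold intervals assume counts of this same kind, so the simulation cannot show their error for real spots. Python 3.11.15, numpy 2.4.6, pandas 2.3.3, scipy 1.17.1 and matplotlib 3.10.9 were used.

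The members and the 37 gene lists (449 genes, 436 found) were chosen with earlier results of these data known. The text names the 15 highest and 15 lowest folds among genes with at least 200 UMIs that also reached 1.5-fold with equal weight per spot, without mitochondrial, ribosomal, haemoglobin and provisional symbols, up to 4 genes per list by fold, and 11 fixed genes. A few further list members are named to complete a count of calls or as markers, and were chosen after their values were seen. Some genes that these rules take are left out of the text. Alternatives were 10 planned settings (spot weighting, depth, segment, Havcr1 threshold, scaling and the measuring rule) and 2 added after seeing the data, spots short of the rule as the reference and members without the 30 spots with the most Havcr1 UMIs. Start-region sequences, motif backgrounds and gene order came from RefSeq tables of GRCr8, matched by symbol for all 3 genes shown.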

Additional observations from a re-analysis of the deposited data

Results flagged for a closer look

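Havcr1 RNA was also present in PAN spots that the comparisons did not use. The 122 PAN spots under 3000 UMIs held 40 Havcr1 UMIs, 154 CPM (95% Poisson interval 110 to 209). Spots with at least 3000 UMIs stood at 219 CPM in the PAN section and 8.44 CPM in the healthy section. Havcr1 was seen in 33 of these 122 spots (27.0%, 19.4 to 35.8%).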

How the results depend on the processing

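Of 108 single-gene folds, each recomputed under up to 12 alternatives, 1002 of 1295 values stayed within the counting interval on the same side, 283 moved and 10 reversed. The lower measuring limit and the 2-fold limit do not enter a fold. Values under those settings stayed the same by construction, and they are among those counted as staying. Of 216 recomputed counts, 153 stayed within 1.5 times and 63 moved. When any Havcr1 UMI made a spot a member, 50 genes were higher and 162 lower, and the calls were 0 of the tubular injury, 1 of the cell cycle, 1 of the thick limb, 0 of the distal, 1 of the collecting duct and 0 of the podocyte list. In that setting Aqp4 (1.05), Calb1 (1.04), Hba-a2 (1.03), Hba-a3 (1.01), Slc22a2 (1.04) and Mcm2 (0.934) reversed. At a 2-fold limit 59 were higher and 156 lower, with 3 tubular injury and 1 cell cycle gene higher and 1 podocyte gene lower. Within proximal-led spots 2 cell cycle genes were higher, and 2 podocyte, 3 thick limb, 1 distal and 0 collecting duct genes lower, and Cdh1 (1.08), Foxi1 (1.31), Hba-a1 (1.22) and Krt18 (1.02) reversed. Fewer spots and fewer measured genes entered that setting. Equal weight per spot left 3 cell cycle genes higher and 2 podocyte genes lower. Weighting by segment, members at 10 or more per 10000, and leaving out the 30 spots with the most Havcr1 UMIs each left 2 cell cycle genes higher. With spots short of the rule as the reference, 318 genes were lower. The cause of these moves was not tested. Scaling by the median of ratios gave 265 higher and 420 lower, and the share of calls that were higher was 38.7% against 32.2%. No paired analysis was possible because each group was 1 section. Genes with under 50 UMIs could not be compared, and no spread between animals could be had.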
